A study of Drosophila melanogaster with 4 samples.

Results

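The genes described here encode the proteins that read messenger RNA and supply it with amino acids: the cytosolic translation factors and the aminoacyl-tRNA synthetases. Members are the genes whose current symbol starts with eIF, eEF or eRF (initiation, elongation and release factors) or is an amino acid code followed by RS, with -m for mitochondrial enzymes. This gave 73 genes of the 10844 named on the array, 44 factor genes and 29 synthetase genes. Each gene is represented by its brightest probe set. A further 13 genes of the RefSeq table that fit the rule, among them *eEF2*, *eEF1alpha1*, *eIF2alpha*, *eIF4B* and *eIF4EHP*, had no singly named probe set and were not analysed here.

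RNA came from whole *Drosophila melanogaster* embryos 3 to 5 h after egg laying at 25 °C. The mutant embryos came from mothers with *how* germline clones and were homozygous for *how*, so that both the maternal and the zygotic supply of HOW, an RNA-binding protein of mesoderm, muscle and glia, was removed; homozygotes were sorted with the help of a GFP-marked balancer, and the labels name no allele. The *how* gene itself was not analysed here, and the signals give no check of the genotype. The wild-type embryos were of the yw stock. The 4 samples, 2 mutant and 2 wild type, were each run on a one-colour Affymetrix array. Every sample joined 5 RNA preparations of 100 embryos each, so the spread between single preparations was not measured.

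Translation starts when initiation factors bring the initiator tRNA and the small ribosomal subunit to the capped end of a messenger RNA and find the start codon. Elongation factors then deliver the charged tRNAs and move the ribosome, and release factors free the finished chain at a stop codon. Synthetases charge each tRNA with its amino acid, with separate enzymes for many amino acids in mitochondria. Many of these are housekeeping genes, and early embryos receive much of this machinery from the mother.

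The median signal of the 73 members was 470.04 and 487 on the mutant arrays, against 482 and 538 on the wild-type arrays. Of 6 marker genes of later cuticle and muscle stages 5 had a named probe set, and all 5 were lower in the mutant at a limma adjusted p under 0.05, with a summed signal of 512 to 640 in the mutant against 3677 to 3750 in wild type. Of 15 markers of the germ layers and pole cells of the whole embryo, 11 had a named probe set and 9 were tested, and 1, the pole cell gene *pgc*, was higher in the mutant, though its wild-type signals of 35.7 and 36.8 lay under the dimness filter of 39.5; their summed signal was 4104 to 4645 in the mutant and 4345 to 4361 in wild type. The summed signal of 4 yolk and eggshell genes was 145 to 212 in the mutant and 175 to 262 in wild type. No marker was at 0, while *zen*, *vas*, *Yp1* and *Yp3* were too dim to be tested. The part of these differences in the values that follow was not tested.

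The comparison asks whether loss of HOW changed the transcripts of the translation machinery, and few members differed. Signals were tested on the log2 scale with limma across all probe sets above a filter on dim signals, and 61 of the 73 members passed that filter. One of them, *HisRS*, rose in the mutant and 0 fell, at a Benjamini-Hochberg adjusted p under 0.05. Across all tested genes 3.24% were called in the same test, 1.87% higher and 1.37% lower, so the members' share of 1.64% was no higher than the background. At an unadjusted p under 0.05 there were 8 members, 4 higher and 4 lower in the mutant, where the background was 16.4% of tested genes. The median log2 change of the 61 members was -0.02, against 0.00 for all tested genes, and 28 members lay above 0 and 33 below it. When each array was left out in turn the sign changed at least once for 29 of the 61, none of which had a log2 change over 0.32 in size. As these are whole embryos, fewer cells that carry a transcript and less of it per cell cannot be told apart.

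The arrays were close enough to bound the change of most members. The typical member differed 1.11-fold between the mutant arrays, 1.17-fold between the wild-type arrays and 1.10-fold between the group means (medians over 61 members). For 52 of the 61 the 95% interval of the log2 change lay within a 2-fold change either way, as it did for 67.5% of all tested genes. A log2 change of over 0.5 in size was seen for 8 members, or 13.1%, against 20.8% of all tested genes. The mutant arrays both lay above or both lay below the wild-type arrays for 24 of 61 members, 8 higher and 16 lower, where 47.8% of all tested genes did so, 24.4% higher and 23.4% lower. With 2 arrays against 2 an exact permutation test cannot give a two-sided p under 0.333.

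**Figure D1:**
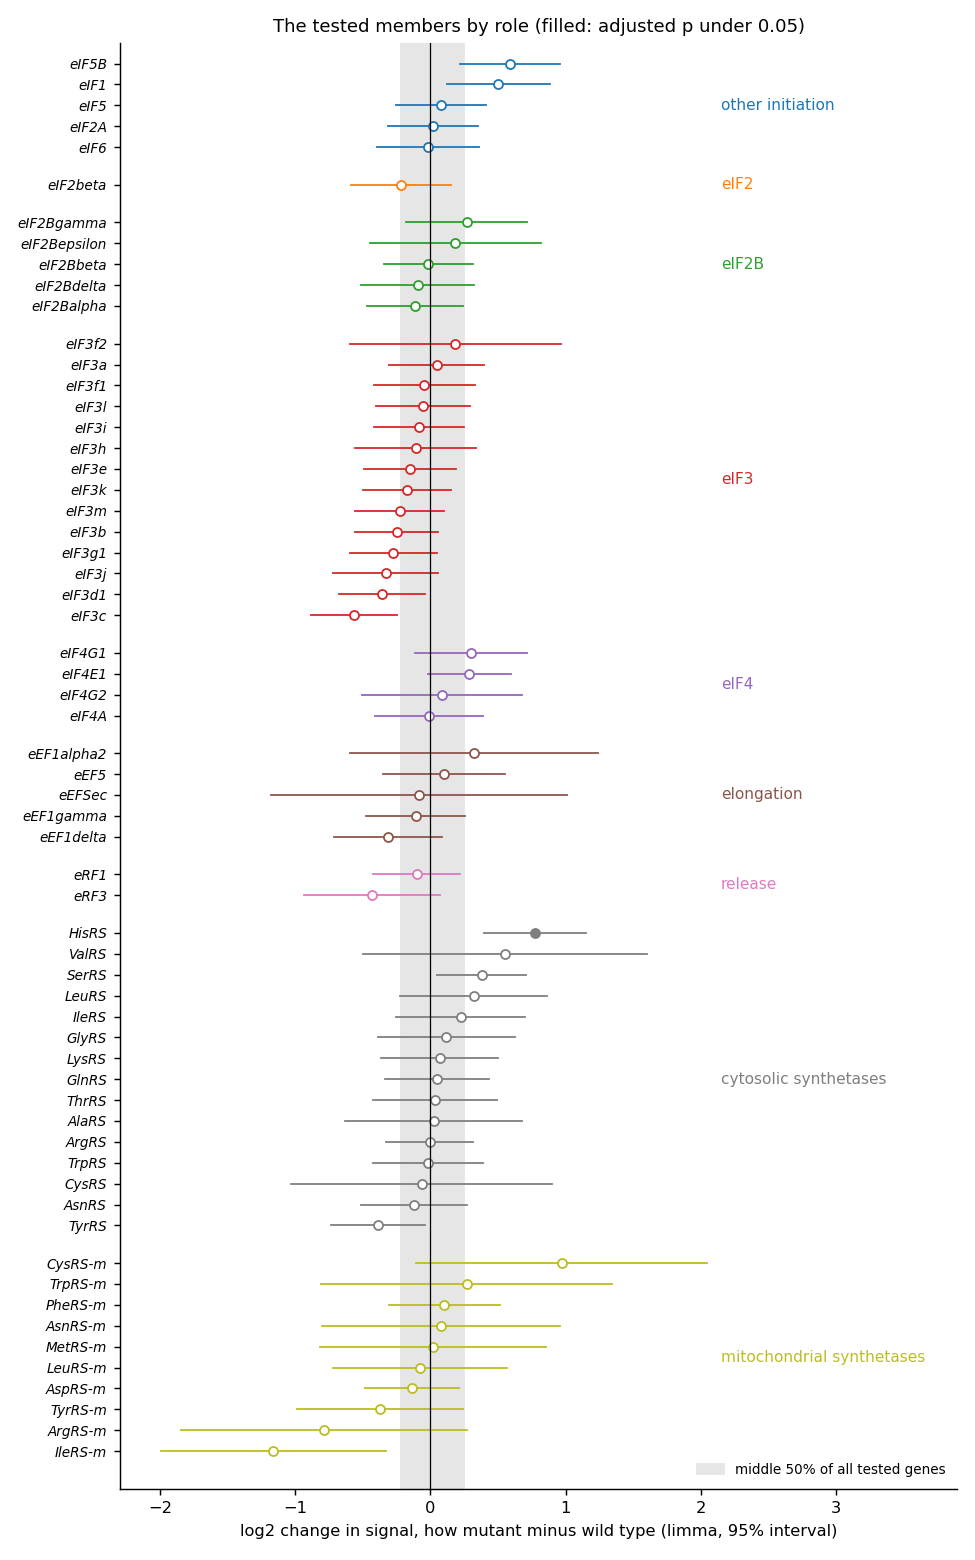
The log2 change in signal of the 61 tested members, how mutant minus wild type, with limma's 95% interval as the line, grouped by role; the grey band holds the middle 50% of all tested genes. Only HisRS is filled, for an adjusted p under 0.05, and most intervals cross 0.

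*HisRS*, on the X chromosome, encodes the enzyme that joins histidine to its tRNA. Its signal was 438 and 451 on the mutant arrays, against 270 and 251 on the wild-type arrays. Both mutant arrays lay well above both wild-type arrays, and the arrays of a group nearly coincided. The means were 445 ± 9.29 in the mutant and 260 ± 13.7 in wild type (SD, n = 2), a log2 change of 0.77 ± 0.16 (SE), or 1.71-fold with a 95% interval of 1.32 to 2.22. The adjusted p was 0.0497 in limma, just under the threshold. In limma it was 0.0465 with a 60th percentile filter, 0.0461 with 50 added to each signal and 0.0459 with the mean over probe sets. With the replicate number as a block it was 0.00501, where 9.92% of all tested genes were called. It was 0.0612 after quantile normalization, 0.0766 after median centring, 0.139 without the mean-variance trend and 0.0515 in a robust fit. With no filter on dim probe sets, where no gene on the array was called, it was 0.146. Without mutant array 1 or 2 it was 0.233 and 0.265, and without wild-type array 1 or 2 it was 0.0950 and 0.144, so the call was lost in each case, while the log2 change stayed between 0.67 and 0.83 under every alternative tried.

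**Figure D2:**
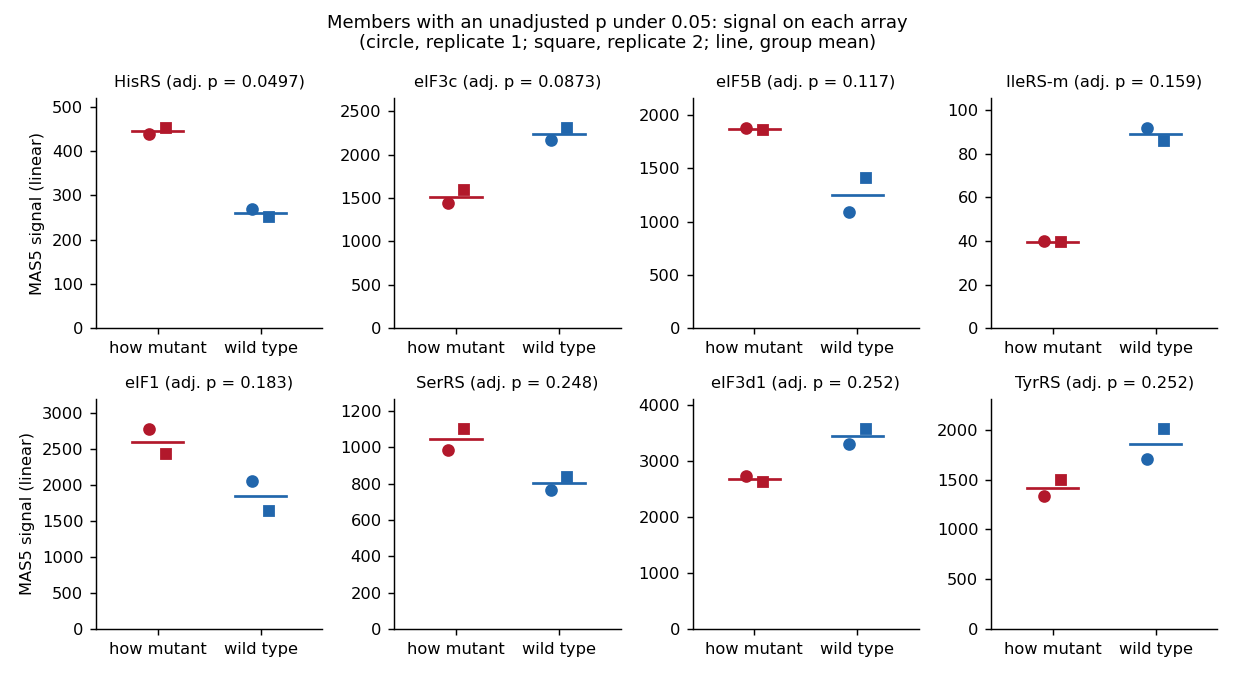
MAS5 signal (linear axis from 0) on each array for the 8 members with an unadjusted limma p under 0.05, mutant arrays left and wild-type arrays right, with lines at group means. In all 8 the arrays of the groups do not overlap, and HisRS is the one with an adjusted p under 0.05.

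Among the cytosolic synthetases, taken as those without -m in the symbol, the 95% interval lay within a 2-fold change for 12 of 15 genes. Whether any of these genes also supplies the mitochondrial enzyme was not examined. Of the 15 members, all tested, *HisRS* rose and 0 fell, where 3.24% of all tested genes were called. Above 0 lay 10 and below it 5, and the median log2 change was 0.05. *SerRS*, for serine, had signals of 985 and 1100 in the mutant against 765 and 837 in wild type, a log2 change of 0.38 ± 0.14 (SE; limma adjusted p = 0.248). *TyrRS*, for tyrosine, lay the other way, with 1338 and 1491 in the mutant against 1704 and 2007 in wild type, a log2 change of -0.39 ± 0.15 (SE; limma adjusted p = 0.252). The groups did not overlap for these genes, yet neither passed the test. *ValRS*, for valine, had a larger log2 change of 0.55, but its 95% interval ran from -0.50 to 1.603, since its signals were low and spread: 72.4 and 59.2 in the mutant against 61.9 and 32.2 in wild type. The arginine enzyme gene *ArgRS* was the most even, at 698 and 678 in the mutant against 699 and 684 in wild type, with a log2 change of -0.01 and a 95% interval of -0.33 to 0.31. The groups overlapped for 12 of the 15 genes, whose log2 changes ran from -0.12 for *AsnRS* to 0.55 for *ValRS*. They did not overlap for 20% of the 15, against 47.8% of all tested genes.

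Synthetases whose symbols fall outside the rule, together with the scaffold proteins of the multi-synthetase complex, were listed separately. Of 7 such genes 6 were tested, and none passed in limma (1 had an unadjusted p under 0.05, against 16.4% of all tested genes). All 6 lay above 0 with a median log2 change of 0.20, where 49.7% of all tested genes lay below 0. *GluProRS*, a fused enzyme that serves glutamate and proline, had signals of 452 and 507 in the mutant against 362 and 325 in wild type, a log2 change of 0.48 ± 0.16 (SE; limma adjusted p = 0.197).

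Mitochondrial synthetases gave wider intervals, within a 2-fold change for 6 of the 10 tested. Of 14 members 10 were tested, and none passed in limma (1 had an unadjusted p under 0.05, against 16.4% of all tested genes). Of the tested genes 5 lay above and 5 below 0, and the median log2 change was -0.03. *IleRS-m*, for isoleucine, had signals of 40.005 and 39.4 in the mutant against 91.8 and 86.1 in wild type. The arrays of each group nearly coincided and the groups lay far apart, with a log2 change of -1.16 ± 0.36 (SE), the largest in size among the 61 members, but the mutant signals were at the level of the dimness filter (39.5), and the adjusted p was 0.159 in limma. *CysRS-m*, for cysteine, lay the other way, with 59.7 and 64.7 in the mutant against 40.6 and 24.8 in wild type (log2 change 0.97, 95% interval -0.11 to 2.05); its wild-type signals lay around and under the filter, which it passed through the mutant arrays. *ArgRS-m* had 34.0 and 48.5 in the mutant against 94.1 and 52.3 in wild type, a log2 change of -0.79 with a 95% interval of -1.85 to 0.27. *AspRS-m*, for aspartate, had 499.6 and 536 in the mutant against 603 and 538 in wild type, a log2 change of -0.14.

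For 7 amino acids both the cytosolic and the mitochondrial enzyme were tested. The cytosolic and mitochondrial log2 changes were 0.22 and -1.16 for isoleucine, -0.01 and -0.79 for arginine and -0.07 and 0.97 for cysteine. They were -0.39 and -0.37 for tyrosine, 0.32 and -0.08 for leucine, -0.12 and 0.08 for asparagine and -0.02 and 0.27 for tryptophan. The changes over 0.5 in size were all of mitochondrial enzymes with a group near the dimness filter, and no difference between the enzymes of a pair was tested.

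Of the 14 tested eIF3 subunit genes 12 had a log2 change below 0 and 2 above it. eIF3 is the large scaffold complex that binds the small ribosomal subunit and recruits the messenger RNA. None of its 14 tested genes passed in limma. An unadjusted limma p under 0.05 was seen for 2, both lower in the mutant, against 16.4% of all tested genes. Across all tested genes 49.7% lay below 0, and the median log2 change of the 14 was -0.16. Both mutant arrays lay below both wild-type arrays for 9 of the 14, against 23.4% of all tested genes, and both lay above for 0. *eIF3c*, a core subunit, had signals of 1442 and 1594 in the mutant against 2175 and 2306 in wild type. These groups were clearly apart, and the log2 change was -0.56 ± 0.14 (SE; limma adjusted p = 0.0873). *eIF3d1*, which can contact the cap, had 2723 and 2629 in the mutant against 3303 and 3571 in wild type, a log2 change of -0.36 ± 0.14 (SE; limma adjusted p = 0.252). *eIF3j*, a loosely bound subunit, had 779.6 and 863 in the mutant against 1179 and 906 in wild type, a log2 change of -0.33 ± 0.17 (SE; limma adjusted p = 0.386) that was -0.14 without wild-type array 1 and -0.52 without wild-type array 2.

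The remaining eIF3 genes whose groups did not overlap were *eIF3b*, *eIF3e*, *eIF3g1*, *eIF3i*, *eIF3k* and *eIF3m*, with log2 changes of -0.25, -0.15, -0.27, -0.08, -0.17 and -0.23. *eIF3i* shows how small such a gap can be, with 4584 and 4572 in the mutant against 4634 and 5087 in wild type. The groups overlapped for *eIF3a* (0.04), *eIF3f1* (-0.04), *eIF3h* (-0.11), *eIF3l* (-0.06) and *eIF3f2* (0.18), a paralogue of *eIF3f1* with signals of 103 and 74.6 in the mutant against 66.2 and 89.5 in wild type. Wild-type array 2 was the highest of the 4 arrays for 11 of the 14 genes. Within arrays numbered 1 the mutant was lower for 11 of 14 with a median of -0.19, against 47.3% and 0.02 for all tested genes. Within arrays numbered 2 it was lower for 13 of 14 with a median of -0.20, against 51.8% and -0.02. The labels do not say that the number marks a pairing, and the 14 genes were read on the same arrays. Without wild-type array 2, 9 of the 14 lay below 0, and without wild-type array 1 all 14 did. Under median centring the count of eIF3 genes below 0 was 12. Both mutant arrays then lay below both wild-type arrays for 7, against 23.3% of all tested genes.

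**Figure D3:**
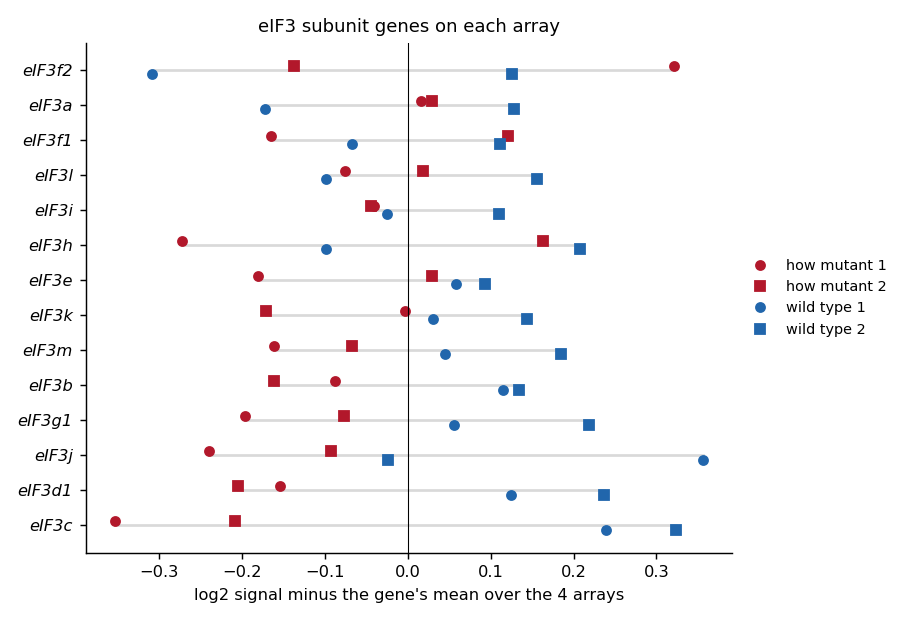
The 14 tested eIF3 subunit genes, one per row, with the log2 signal on each array minus the gene's mean over the 4 arrays (mutant in red, wild type in blue; circles for replicate 1, squares for replicate 2). In 9 rows both mutant points lie left of both wild-type points, and wild-type array 2 is furthest right in 11.

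Of the factors that find the start codon and join the ribosomal subunits all 5 members were tested, and none passed in limma. An unadjusted limma p under 0.05 was seen for 2, against 16.4% of all tested genes. *eIF1*, which guards the choice of start codon, had 2779 and 2427 in the mutant against 2059 and 1633 in wild type, a log2 change of 0.50 ± 0.16 (SE; limma adjusted p = 0.183). *eIF5B*, the GTPase that joins the large subunit, had 1877 and 1859 in the mutant against 1093 and 1413 in wild type by its brightest probe set, a log2 change of 0.59 ± 0.16 (SE; limma adjusted p = 0.117). Its other probe sets did not agree: one had 1307 and 1169 in the mutant against 1552 and 1663 in wild type, a log2 change of -0.38 ± 0.14 (SE), and the other 483 and 453 in the mutant against 423 and 408 in wild type, a log2 change of 0.17 ± 0.15 (SE). The first 2 of these 3 probe sets carry the platform's suffixes for designs that did not meet all probe selection rules. The direction for *eIF5B* thus depends on the probe set, and the mean over its probe sets gave a log2 change of 0.13. The log2 change was 0.08 for *eIF5*, the partner that makes eIF2 hydrolyse GTP, 0.02 for *eIF2A* and -0.02 for *eIF6*, which holds the large subunit back, and their groups overlapped.

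eIF2 carries the initiator tRNA, and eIF2B recharges it with GTP. *eIF2beta*, the 1 measured eIF2 subunit gene, had 1685 and 1931 in the mutant against 1885 and 2336 in wild type, a log2 change of -0.22 ± 0.16 (SE). The 5 eIF2B subunit genes ranged from -0.11 to 0.27 with a median of -0.02, and none passed in limma (0 had an unadjusted p under 0.05). *eIF2Bgamma* was the 1 whose groups did not overlap, at 232 and 228 in the mutant against 205 and 179 in wild type (log2 change 0.27). *eIF2Bepsilon*, the catalytic subunit, had 529 and 577 in the mutant, which lay between the wild-type values of 666 and 355. *eIF2Balpha* had 458 and 484 in the mutant against 482 and 538 in wild type, a log2 change of -0.11. *eIF2Bbeta* had 770.3 and 754 in the mutant against 729 and 814 in wild type.

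The cap-binding factors gave no call either, with 4 of 10 members tested and 0 with an unadjusted p under 0.05 in limma. *eIF4A*, the helicase that unwinds the leader of the messenger RNA, had 12252 and 12188 in the mutant against 11428 and 13318 in wild type, and its log2 change of -0.01 had a 95% interval of -0.41 to 0.39. The platform also carries 3 control probe sets for this gene, at the 3′ end, the middle and the 5′ end of the transcript. Their mean log2 differences, mutant minus wild type, were 0.03, -0.14 and -0.17, and the groups overlapped in all 3. *eIF4E1*, the main cap-binding protein gene, had 2248 and 2382 in the mutant against 1920 and 1870 in wild type. The groups did not overlap, and the log2 change was 0.29 ± 0.13 (SE; limma adjusted p = 0.344). *eIF4G1*, the scaffold that joins the cap-binding protein to eIF3, had 1140 and 1338 in the mutant against 1162 and 867 in wild type (0.30, but 0.088 without wild-type array 2 and 0.51 without wild-type array 1), and its relative *eIF4G2* 114 and 109 in the mutant against 106 and 104 in wild type (0.08).

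Of the elongation genes 2 lay above 0 and 3 below, and both release factor genes lay below. None of the 5 elongation genes and neither of the release genes passed in limma (0 had an unadjusted p under 0.05). *eEF1delta* and *eEF1gamma* encode parts of the complex that recharges the tRNA-delivering factor. *eEF1delta* had 1118 and 1499 in the mutant against 1686 and 1538 in wild type, a log2 change of -0.31 ± 0.17 (SE), and *eEF1gamma* 5199 and 5463 in the mutant against 5270 and 6274 in wild type, -0.11 ± 0.16 (SE). *eEF5*, formerly named eIF5A, eases the bonding of difficult residues. It had 6088 and 4969 in the mutant against 5955 and 4421 in wild type, a log2 change of 0.10. *eEF1alpha2* had low signals of 95.7 and 55.2 in the mutant against 62.3 and 54.3 in wild type (0.32, 95% interval -0.60 to 1.24). *eEFSec*, which handles selenocysteine, had 49.2 and 64.7 in the mutant, within the wild-type values of 88.6 and 40.4. *eRF1*, which reads stop codons, had 1585 and 1797 in the mutant against 1803 and 1824 in wild type (-0.10). Its GTPase partner *eRF3* had 2011 and 1328 in the mutant against 2473 and 1963 in wild type, a log2 change of -0.43 ± 0.22 (SE; limma adjusted p = 0.385) with overlapping groups. Leaving out mutant array 1 gave -0.73, and leaving out mutant array 2 gave -0.13.

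The 12 members too dim to be tested were mostly paralogues and mitochondrial enzymes. They were *eIF3d2*, *eIF3g2*, *eIF4E3*, *eIF4E4*, *eIF4E5*, *eIF4E6*, *eIF4E7*, *eIF4H2*, *GluRS-m*, *ProRS-m*, *SerRS-m* and *ValRS-m*, and their signals ran from 0.623 to 75.045. Just inside the filter was *CysRS-m*, with a geometric mean signal of 44.4, and just outside *ProRS-m* with 38.2. Among the eIF4E relatives, *eIF4E3* had 51.6 and 41.5 in the mutant against 5.41 and 11.0 in wild type. *eIF4E5* had 8.70 and 9.996 in the mutant against 0.623 and 0.967 in wild type, and *eIF4E6* 23.6 and 9.54 in the mutant against 4.09 and 3.38 in wild type. *eIF4E4* lay the other way, with 2.24 and 1.65 in the mutant against 4.96 and 23.3 in wild type, and *eIF4E7* overlapped at 18.3 and 18.9 in the mutant against 24.4 and 13.7 in wild type. *SerRS-m* had 40.02 and 45.9 in the mutant against 16.2 and 14.3 in wild type, *ValRS-m* 24.5 and 15.8 in the mutant against 1.29 and 4.37 in wild type, and *eIF3g2* 11.0 and 31.6 in the mutant against 6.49 and 5.02 in wild type. In all, both mutant arrays lay above both wild-type arrays for 7 of the 12, below for 2, and the groups overlapped for 3. Among all genes under the filter the groups did not overlap for 35.2%, with the mutant higher for 18.4% and lower for 16.8%. At such signals no fold change is given, and whether the transcripts were present was not tested.

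**Figure D4:**
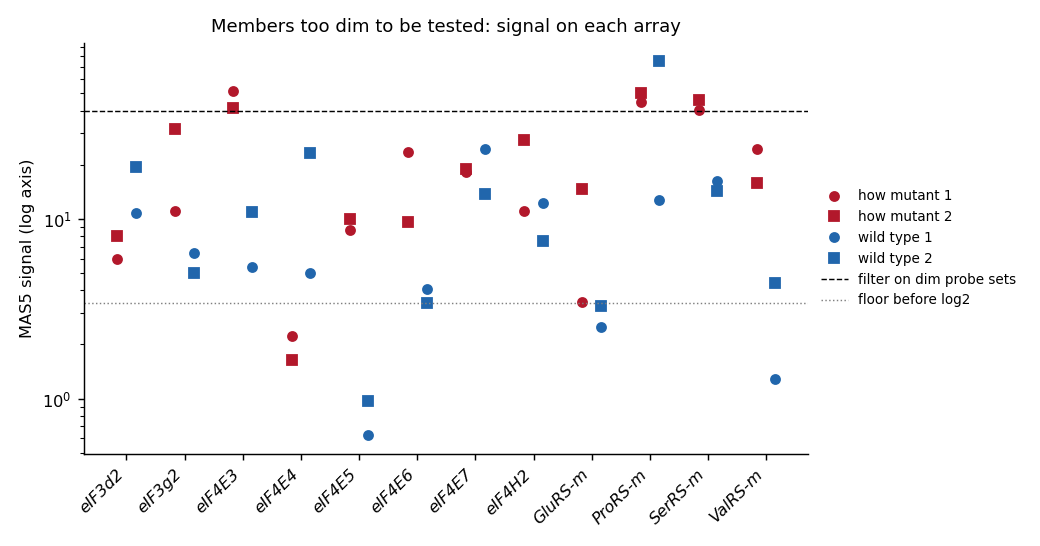
MAS5 signal (log axis) on each array for the 12 members too dim to be tested, mutant in red left of wild type in blue, with dashed and dotted lines at the dimness filter and at the floor set before log2. Nearly all points lie under the dashed line, and eIF4E3, SerRS-m and ProRS-m are the 3 genes with a point above it.

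For 5 genes several probe sets passed the filter, and they pointed the same way for 3 of them. Besides *eIF5B*, the brightest and second probe sets gave 0.32 and 0.73 for *LeuRS*, -0.11 and -0.33 for *eIF3h*, 0.02 and 0.01 for *MetRS-m* and -0.02 and 0.15 for *eIF6*. The second probe set of *LeuRS*, the enzyme gene for leucine, had 136 and 187 in the mutant against 107 and 86.5 in wild type, with a limma adjusted p of 0.249. The brightest probe set of *LeuRS* carries a platform suffix for designs that did not meet all probe selection rules, as for *eIF5B*.

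Other genes of the pathway came from 5 lists. Of 51 genes 38 were tested, and none passed in limma, where 3.24% of all tested genes did. An unadjusted limma p under 0.05 was seen for 9, 6 higher and 3 lower in the mutant, against 16.4% of all tested genes. Of all tested genes 49.7% lay below 0. The list of translation control, which holds kinases, repressors and partners of the initiation factors, had 16 tested genes, of which 13 lay above 0 with a median of 0.28. Of the 4 tested genes for ribosome rescue and recycling 3 lay above 0. *Clbn*, which acts on stalled ribosomes, had 137 and 96.4 in the mutant against 62.4 and 53.7 in wild type, a log2 change of 0.99 ± 0.33 (SE; limma adjusted p = 0.188). *pelo*, which frees stalled ribosomes, had 492 and 478 in the mutant against 398 and 265 in wild type (0.58 ± 0.21, SE; limma adjusted p = 0.236). All 5 tested mitochondrial translation factors lay below 0, with a median of -0.16; *mEFTu2*, which delivers charged tRNAs, had 441 and 428 in the mutant against 589 and 571 in wild type (-0.42 ± 0.15, SE; limma adjusted p = 0.208). The 7 tested genes of the Myc network and the nucleolus had a median of 0.07.

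Values for the ribosome's own protein genes are given for comparison. The 34 tested genes for cytosolic ribosomal proteins had a median log2 change of -0.13 with 28 of them below 0, and 1 passed the test: *RpS10a*, named after its value was seen, with a log2 change of 3.03. The 64 tested genes for mitochondrial ribosomal proteins had a median of -0.04 with 36 below 0, and none passed in limma. An unadjusted limma p under 0.05 was seen for 5, against 16.4% of all tested genes. Of all tested genes 49.7% lay below 0, and these groups were not tested against each other.

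**Figure D5:**
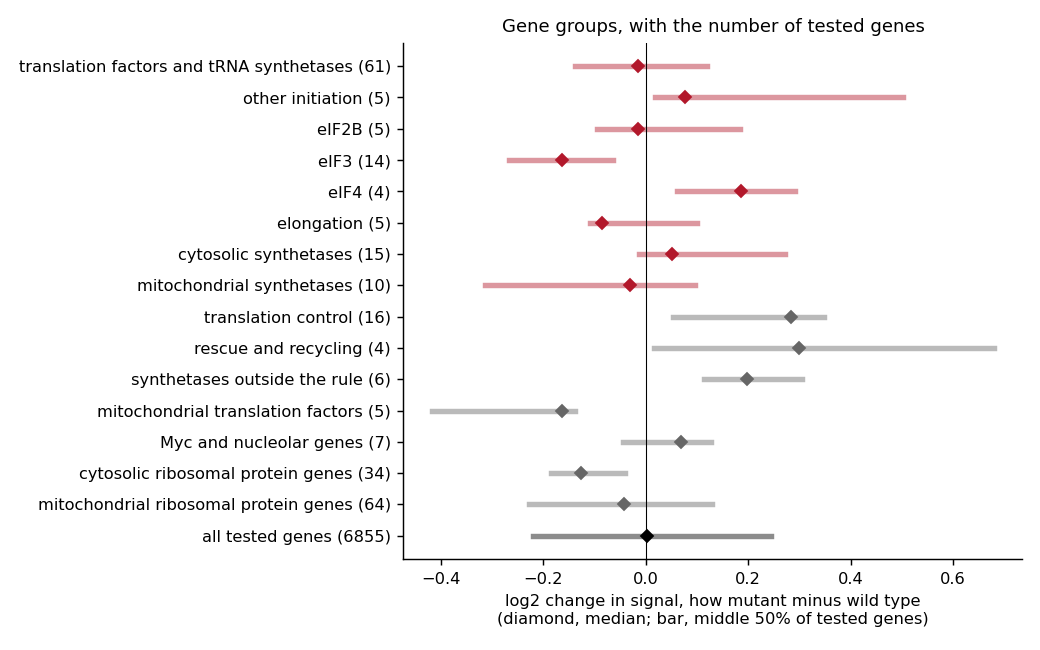
Median (diamond) and middle 50% (bar) of the log2 change, how mutant minus wild type, for the members as a whole and by role (red), for the other pathway lists and the ribosomal protein genes (grey) and for all 6855 tested genes (black). The bars of eIF3 (-0.27 to -0.06), the mitochondrial translation factors (-0.42 to -0.14) and the cytosolic ribosomal protein genes (-0.18 to -0.04) lie left of 0. Those of other initiation (0.02 to 0.50), eIF4 (0.06 to 0.29) and translation control (0.05 to 0.35) lie right of 0. So do those of rescue and recycling (0.02 to 0.68) and the synthetases outside the rule (0.11 to 0.30). The bar of the 61 members spans 0.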

How the data were processed

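The deposited values are linear intensities, 1 for each probe set and array, made by the authors with MAS5 (named, without version, in the submitters' processing notes). Trimmed by 2% at each end, the mean was 250.04 on all 4 arrays, so they had been scaled before deposit. Signals under the 5th percentile of the 13966 gene probe sets (3.38) were raised to that floor before log2. Dim probe sets, with a mean log2 signal under the 40th percentile (39.5 as a signal), were dropped and 8380 remained. These were tested together with limma 3.58.1 (R 4.3.3; eBayes with trend), with Benjamini-Hochberg adjustment over all of them; changes are mutant minus wild type. Counts of genes use the brightest probe set of each of 6855 tested genes. The test was tried on simulated data with known changes and noise drawn from limma's own variance estimates. Such a run cannot check those estimates.

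Probe sets were named by the platform's annotation, updated by Entrez ID to RefSeq symbols of Release 6; all 83 member probe sets matched. Values are given for members that passed, for the 3 largest changes and the highest signal in each role, for dim members, and for families and pairs; of the other lists, for the 4 smallest p. Members and lists were chosen with earlier results of these data known. The labels call the samples independent; the number of arrays limits precision. P-values measure the spread between these pooled samples. Alternatives changed the scaling, the filter, the floor, the probe set rule, the variance model, the threshold and the arrays used.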

Additional observations from a re-analysis of the deposited data

How the results depend on the processing

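The count of 1 changed member was 0 after quantile normalization, with median centring, with no filter, without the trend and in a robust fit. In these fits 9, 7, 15, 5 and 9 members had an unadjusted p under 0.05 in limma. The share of all genes at that unadjusted p is not given for them. With no filter no gene on the array was called, so the 0 there says nothing particular to the members. Without the trend a smaller share of all tested genes was called than in the main fit. After quantile normalization, with median centring and in the robust fit that share was close to the main fit's. At an adjusted p under 0.1 the count of changed members was 2, as *eIF3c* joined *HisRS*. The share of all tested genes at that threshold is not given here, so this count has no background beside it. Leaving out an array gave 0 to 0 changed members (4 to 9 at an unadjusted p under 0.05); a group's single remaining array takes its spread from the other group. With the replicate number as a block it was 6, as *eIF3c*, *eIF5B*, *eIF1*, *eRF3* and *TyrRS* passed too (limma adjusted p = 0.00297, 0.00414, 0.00726, 0.0232 and 0.0368), beside 9.92% of all tested genes; the labels do not say that the number marks a pairing, and same-numbered arrays had a correlation of 0.183 in their deviations from group means. The count of members whose groups did not overlap, 24, was 6 where the nearest arrays had to be 1.2-fold apart (9.84%, against 17.8% of all tested genes). It was 19 to 24 of 61 under the scaling, floor and probe set alternatives (31.1% to 39.3% of members, against 45.4% to 48.0% of all genes). With no filter it was 33 of 73 (45.2%, above the 42.4% of all genes). With the 60th percentile filter it was 19 of 47 (40.4%, against 49.2% of all genes). It was 35 to 50 of 61 with 1 array left out, since fewer arrays must then lie apart; the share of all genes was 71.2% to 76.2%, and the members' share was above it, among these 4 settings, only without wild-type array 1 (82.0%). The median log2 change stayed between -0.03 and 0.02 under those alternatives and ran from -0.095 to -0.018 without an array. Of all 61 tested members 29 changed sign and 47 moved by over 1.5 times when an array was left out. Among the 24 with the largest changes of their role, *eEF1alpha2* was -0.075 without mutant array 1 (leave-one-out range -0.075 to 0.72), and without wild-type array 2 *eIF5* was -0.042 (range -0.042 to 0.20), *eIF2Bepsilon* -0.27 (range -0.27 to 0.64) and *eEF1gamma* 0.016 (range -0.24 to 0.016). None of these had passed, and the cause was not tested. All alternatives listed were run. Signals near the filter, as for *IleRS-m*, limit how far a change can be measured.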
